A study of Mus musculus with 4 samples.

Results

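The 10 SOX genes described here are Sox2, which was delivered to the cells as a reprogramming factor, and Sox3, Sox21, Sox4, Sox11, Sox12, Sox5, Sox6, Sox9 and Sox15 beside it. They were chosen by symbol and are 10 of the 27597 genes listed. RNA-seq was done on mouse embryonic fibroblasts (strain OGXICR, age D13.5) that had been taken from skin after its epidermis was removed. The cells were infected through a doxycycline-inducible lentiviral system with OCT4, SOX2, KLF4 and c-MYC (OSKM), with GATA3, SOX2, KLF4 and c-MYC (G3SKM), with SOX2, KLF4 and c-MYC (SKM), or with an empty vector. The labels give no strain or age difference between the groups and no time after infection. Each group has 1 value per gene, which stands for 2 replicates combined, so no difference given here can be set against a spread between replicates, and none was tested.

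SOX proteins are transcription factors that bind DNA through an HMG box, a domain that bends the double helix, and usually act with a partner factor on neighbouring sites. The family is divided by the sequence of that box. SOX2 and SOX3 (SoxB1) are activators that maintain pluripotent and neural progenitor cells, and SOX2 binds with OCT4 at genes of pluripotent cells. SOX21 (SoxB2) represses and counters SoxB1. SOX4, SOX11 and SOX12 (SoxC) are broadly present in embryonic mesenchyme and in immature neurons. SOX9 (SoxE) with SOX5 and SOX6 (SoxD) drives cartilage formation, and SOX15 (SoxG) is close to SoxB1 in sequence.

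Of the 10 genes, 6 have a single exon in the annotation used, namely Sox2, Sox3, Sox21, Sox4, Sox11 and Sox12, and all 10 lie on different chromosomes except Sox9 and Sox15, both on chromosome 11. The deposited unit is RPKM, reads per kilobase of gene and per M reads (mega-reads). It divides by the whole gene span with introns, so Sox5, with a span 66.3 times its exon length, and Sox6, with 38.3 times, have very low deposited values. Levels are therefore given as RPKM per exon length wherever genes are set beside each other, a scale on which the single-exon genes keep their deposited values. Libraries held 74.7 M reads in OSKM, 102 M in G3SKM, 54.0 M in SKM and 111 M in empty vector, as worked out from the deposited values. Bounds in brackets are Clopper-Pearson intervals at 95%, taken from each gene's reads, and cover counting error only. Values of the SKM library followed the GC content of transcripts. Spearman's rho of log2 fold with GC over all genes, which are no replicates, was 0.41 where SKM was set against empty vector, and -0.62 and -0.63 where OSKM and G3SKM were set against SKM. In the 3 comparisons without SKM it lay between -0.04 and 0.02. The transcript of Sox3 is 66.4% GC, which is above 99.7% of protein-coding genes, and those of Sox12, Sox15 and Sox21 have 59.9%, 58.9% and 58.3%. Folds that involve SKM are therefore also given with this trend removed where that changes them by over 1.5 times or changes a call. Removal works by bins of genes with like GC. Sox3 shares its bin with Sox12, whose GC is lower, so a trend within that bin was not removed.

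Sox2 was the most abundant SOX gene in all 3 groups that received it, and it was close to absent from the cells given an empty vector. It stood at 110.5 RPKM in OSKM, 70.7 in G3SKM, 187 in SKM and 0.260 in empty vector, from 20282, 17631, 24793 and 71 reads. Against empty vector it was 425-fold higher in OSKM (337 to 544), 272-fold higher in G3SKM (215 to 348) and 718-fold higher in SKM (569 to 920). The groups that received Sox2 did not have the same amount of it. OSKM was 1.69-fold lower than SKM (1.66 to 1.72), G3SKM was 2.64-fold lower than SKM (2.59 to 2.69), and OSKM was 1.56-fold higher than G3SKM (1.53 to 1.59). The 50.5% GC of its transcript is near the middle of all genes, and with the GC trend removed the fold of G3SKM against SKM was 2.61-fold lower. Values per gene do not separate delivered from endogenous Sox2, and in bulk RNA fewer cells carrying a transcript and less of it per cell cannot be told apart. Sox2 also lies inside Sox2ot, a long noncoding gene on the same strand that has no expression values here.

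**Figure D1:**
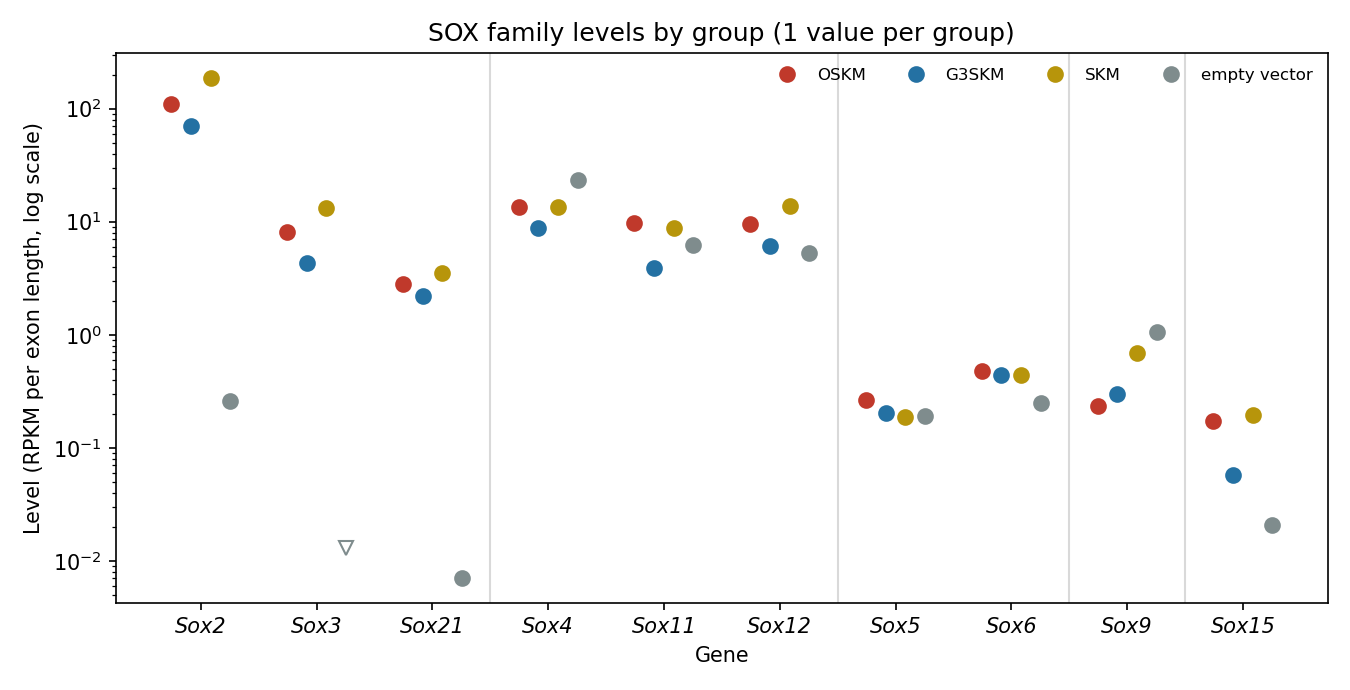
Level of each SOX gene in RPKM per exon length (log scale) in OSKM, G3SKM, SKM and empty vector, with 1 point per group and vertical lines between subfamilies. The open triangle marks Sox3 in empty vector, which had no reads and is drawn at the level of 3 reads. Sox2, Sox3 and Sox21 stand far higher in the 3 factor groups, whereas Sox4 and Sox9 are highest in empty vector.

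Sox3 and Sox21, SoxB genes close to Sox2 in sequence, were high in the same groups. Sox3 was at 8.14 RPKM in OSKM, 4.34 in G3SKM and 13.2 in SKM, from 1253, 907 and 1473 reads, and had no reads in empty vector, which allows a level of up to 0.0131 RPKM. Against that limit of 3 reads it was at least 621-fold higher in OSKM, at least 331-fold higher in G3SKM and at least 1009.7-fold higher in SKM. Sox21 was at 2.81 RPKM in OSKM, 2.18 in G3SKM, 3.50 in SKM and 0.00711 in empty vector, from 798, 841, 719 and 3 reads. Its fold against empty vector was 396 in OSKM (135 to 1922), 307 in G3SKM (105 to 1491) and 493 in SKM (168 to 2396), and the wide bounds come from the 3 reads in empty vector. Within the factor groups both genes depended on the GC trend of SKM, which removal by bins may leave in part for Sox3. Sox3 was 1.63-fold lower in OSKM than in SKM (1.51 to 1.75) and 3.05-fold lower in G3SKM than in SKM (2.81 to 3.32), and with the trend removed the fold was 1.014 in OSKM, and G3SKM was 1.82-fold lower. Sox21 was 1.25-fold lower in OSKM (1.12 to 1.38) and 1.61-fold lower in G3SKM (1.45 to 1.78) than in SKM, and with the trend removed its folds were 1.25 and 0.965. Removal also put the excess of SKM over empty vector at 638-fold for Sox3, with 3 reads in place of 0, and at 321-fold for Sox21. Between OSKM and G3SKM, where rho with GC was -0.04, Sox3 was 1.88-fold higher in OSKM (1.72 to 2.05) and Sox21 1.29-fold higher (1.17 to 1.42).

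Because reads of a strongly expressed gene can be assigned to a close relative, the sequences of the SoxB genes were set beside their reads. The stretch shown lies in the HMG box region, where Sox2 and Sox3 are most alike over 237 coding bases. It covers coding bases 121 to 357 of Sox2 (GRCm38 chr3:34650536-34650772, plus strand), 424 to 660 of Sox3 (chrX:60892771-60893007, minus strand), 16 to 252 of Sox21 (chr14:118235384-118235620, minus strand) and 16 to 252 of Sox14 (chr9:99875433-99875669, minus strand), all within a single coding exon and counted from the start codon. Capitals mark bases that differ from Sox2, and the sequences are those of the GENCODE M21 transcripts.
Sox2: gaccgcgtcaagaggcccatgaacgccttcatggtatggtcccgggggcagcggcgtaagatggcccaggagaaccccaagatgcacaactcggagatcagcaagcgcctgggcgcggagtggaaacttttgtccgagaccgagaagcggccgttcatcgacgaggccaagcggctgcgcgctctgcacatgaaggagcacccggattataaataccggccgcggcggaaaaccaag
Sox3: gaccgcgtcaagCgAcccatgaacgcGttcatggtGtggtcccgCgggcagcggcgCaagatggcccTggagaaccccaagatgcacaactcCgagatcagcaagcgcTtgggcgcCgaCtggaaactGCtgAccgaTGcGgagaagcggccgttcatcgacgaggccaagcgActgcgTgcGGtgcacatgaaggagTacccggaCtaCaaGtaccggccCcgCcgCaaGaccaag
Sox21: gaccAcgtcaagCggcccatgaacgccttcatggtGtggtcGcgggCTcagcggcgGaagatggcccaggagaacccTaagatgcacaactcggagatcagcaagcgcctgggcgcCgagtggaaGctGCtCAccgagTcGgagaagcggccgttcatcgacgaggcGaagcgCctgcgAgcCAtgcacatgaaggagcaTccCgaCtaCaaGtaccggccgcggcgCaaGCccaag
Sox14: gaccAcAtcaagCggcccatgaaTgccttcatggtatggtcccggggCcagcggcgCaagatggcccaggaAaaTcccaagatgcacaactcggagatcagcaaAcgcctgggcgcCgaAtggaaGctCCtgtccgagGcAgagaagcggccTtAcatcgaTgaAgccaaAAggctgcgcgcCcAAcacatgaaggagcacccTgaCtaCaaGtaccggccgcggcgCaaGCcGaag
Sox3 and Sox21 each differ from Sox2 at 29 of these bases (87.8% identical) and Sox14, another SoxB2 gene, at 33 (86.1%). The SoxC genes Sox4, Sox11 and Sox12 differ at 74, 76 and 77 bases.

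Over whole transcripts, the number of 36-base windows found in Sox2 with at most 2 mismatches was 50 in Sox21, 49 in Sox14 and 44 in Sox3. Sox1, which has no expression values here, had 53 such windows, and Sox10 had 2. At 50 bases the number was 29 in Sox21, 16 in Sox1, 2 in Sox3 and 0 in Sox14 and Sox10. At 75 bases none of these genes had any. Read length and the mismatches allowed in alignment were not given in the sources used here. Reads of Sox3 were 6.18% of those of Sox2 in OSKM (5.83 to 6.54), 5.14% in G3SKM (4.81 to 5.50) and 5.94% in SKM (5.63 to 6.26). Reads of Sox21 were 3.93% of those of Sox2 in OSKM (3.66 to 4.22), 4.77% in G3SKM (4.45 to 5.11) and 2.90% in SKM (2.69 to 3.12). The counting bounds on the share of Sox21 did not overlap between the 3 groups, and the order of the groups was not that of Sox3. Reads of Sox2 and Sox3 rest on fitted lengths, an uncertainty that the bounds do not cover. These shares depend on the GC trend of SKM. With it removed, the share of Sox3 in OSKM was 1.73 times that in SKM in place of 1.04 times, and in G3SKM 1.44 times in place of 0.866 times. The share of Sox21 in OSKM was 2.13 times that in SKM in place of 1.36 times, and in G3SKM 2.52 times in place of 1.64 times. Sox14, with about as many shared 36-base windows as Sox3 and Sox21, had about 3 reads in G3SKM, a value rounded from its annotated span. It had 0 in SKM, which is at most 0.0149% of the Sox2 reads there, and was not listed in OSKM or empty vector. Gm4675, a noncoding gene on the strand opposite Sox21 that overlaps it by 799 bases, had 226 reads in OSKM, 215 in G3SKM, 190 in SKM and 0 in empty vector. The library kit named does not keep the strand, so reads within that overlap cannot be told apart. How much of the Sox3 and Sox21 values comes from reads of Sox2 was not tested.

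**Figure D2:**
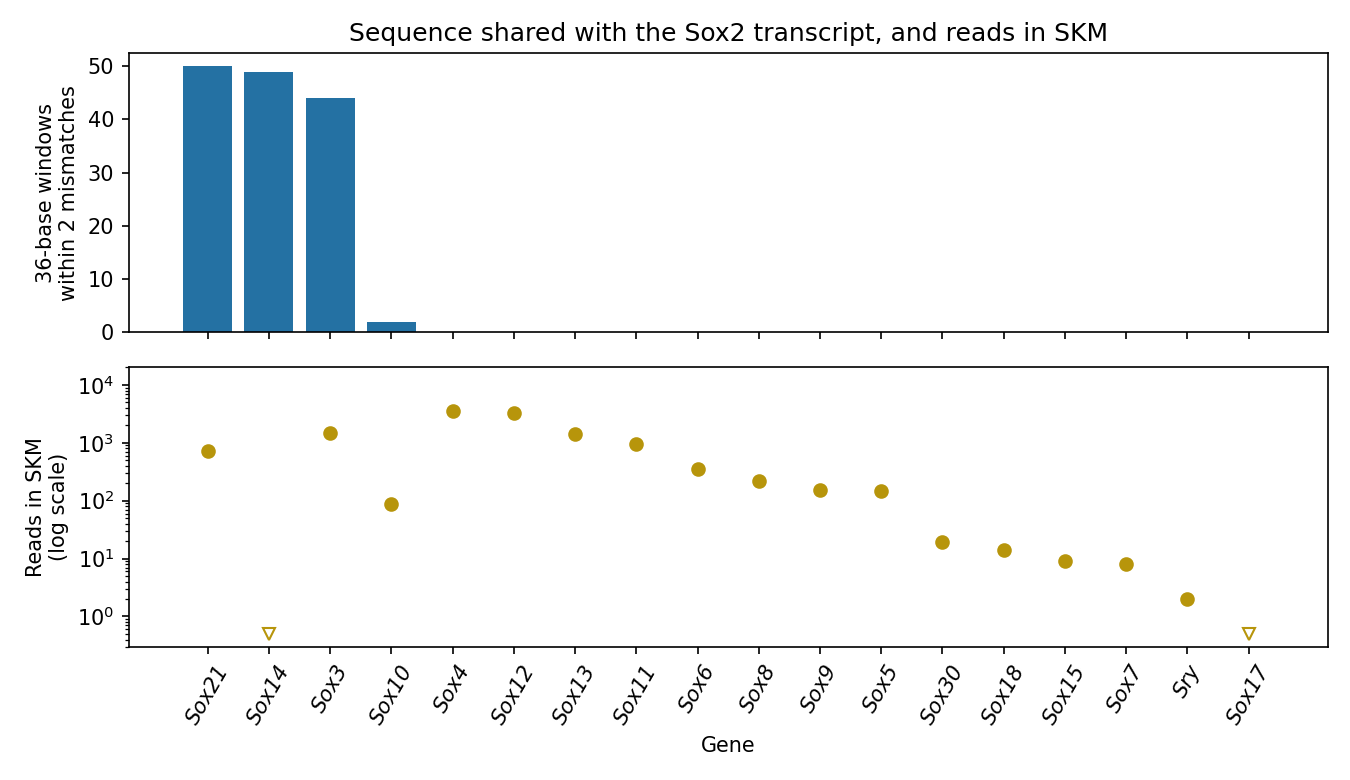
For each SOX gene with an SKM value other than Sox2, the number of 36-base windows of its transcript found in the Sox2 transcript with at most 2 mismatches (upper panel) and its reads in SKM on a log scale (lower panel, open triangles for 0 reads, drawn at the bottom). Sox21, Sox14 and Sox3 have 50, 49 and 44 such windows, and among them Sox14 has no reads in SKM.

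The SoxC genes made up most of the SOX transcripts of cells given an empty vector. Sox4 was at 13.4 RPKM in OSKM, 8.74 in G3SKM, 13.6 in SKM and 23.5 in empty vector. It was the highest SOX gene of the empty vector group and lower in all 3 factor groups, by 1.75-fold in OSKM (1.70 to 1.81), 2.69-fold in G3SKM (2.60 to 2.78) and 1.73-fold in SKM (1.67 to 1.80). OSKM and SKM did not differ beyond counting error for Sox4, with a fold of 0.986 (0.944 to 1.03).

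Sox11 was at 9.78 RPKM in OSKM, 3.91 in G3SKM, 8.80 in SKM and 6.19 in empty vector, so it was lowest with GATA3. OSKM was 1.11-fold higher than SKM (1.02 to 1.21), which turned to 1.07-fold lower with the GC trend removed. G3SKM was 2.25-fold lower than SKM (2.05 to 2.48) and 1.59-fold lower than empty vector (1.45 to 1.73), whereas OSKM was 1.58-fold higher than empty vector (1.47 to 1.70). OSKM was 2.50-fold higher than G3SKM (2.30 to 2.73), in a comparison that leaves out the SKM library. Sox11 was the only member called between OSKM and G3SKM, under either rule given with the counts of called members. With the GC trend removed the difference between G3SKM and SKM was 2.66-fold.

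Sox12 was at 9.51 RPKM in OSKM, 6.04 in G3SKM, 13.8 in SKM and 5.33 in empty vector. It was 1.79-fold higher than empty vector in OSKM (1.70 to 1.88), 1.13-fold in G3SKM (1.07 to 1.20) and 2.58-fold in SKM (2.45 to 2.72). Its direction in G3SKM turned with the scaling, to a log2 fold of -0.13 when centred on the median of all genes. Its GC-rich transcript made the SKM value depend on the GC trend. With the trend removed, Sox12 was 1.63-fold higher in SKM than in empty vector, 1.36-fold lower in G3SKM than in SKM in place of 2.28-fold lower, and 1.14-fold higher in OSKM than in SKM in place of 1.45-fold lower.

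The sum of Sox4, Sox11 and Sox12 was 32.7 RPKM in OSKM, 18.7 in G3SKM, 36.2 in SKM and 35.0 in empty vector. Over all 10 genes the sum was 155 RPKM per exon length in OSKM, 96.9 in G3SKM, 241 in SKM and 36.8 in empty vector. Sox2 accounted for 71.2% of it in OSKM, 73.0% in G3SKM, 77.4% in SKM and 0.707% in empty vector. The SoxC genes accounted for 21.1%, 19.3% and 14.99% in those factor groups and for 95.2% in empty vector. Sox2 exceeded Sox4 by 8.24 times in OSKM, 8.09 times in G3SKM and 13.7 times in SKM, while in empty vector Sox4 exceeded Sox2 by 90.4 times. In the order of levels, Sox2 and Sox4 came first and second in OSKM and G3SKM, and Sox4 and Sox11 in empty vector. In SKM Sox2 was followed by Sox12 at 13.8 RPKM and Sox4 at 13.6, whose order cannot be given because the SKM value of Sox12 depends on the GC trend.

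**Figure D3:**
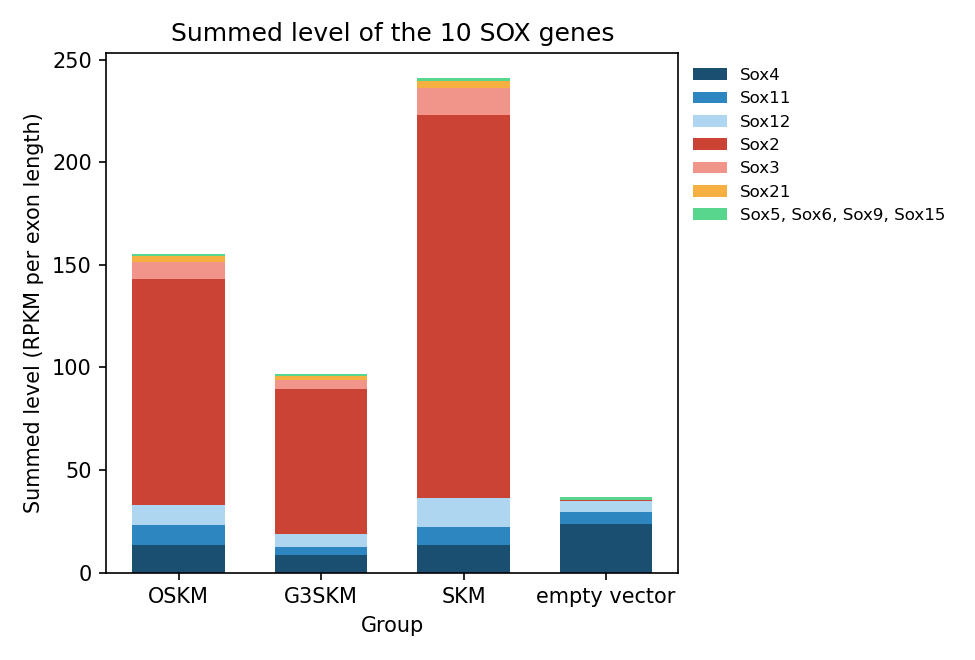
Summed level of the 10 SOX genes in RPKM per exon length (linear scale from 0) in OSKM, G3SKM, SKM and empty vector, stacked by gene. The red Sox2 segment makes up most of the bar in the 3 factor groups, and the blue Sox4, Sox11 and Sox12 segments sum to 18.7 in G3SKM and between 32.7 and 36.2 in the other groups.

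Sox5 and Sox6, of the SoxD subfamily, were low in all groups. Sox5 stood at 0.265 RPKM per exon length in OSKM, 0.201 in G3SKM, 0.187 in SKM and 0.192 in empty vector, from 285, 294, 145 and 307 reads. G3SKM, SKM and empty vector did not differ beyond counting error, with folds of 1.05 for G3SKM against empty vector (0.890 to 1.23) and 0.971 for SKM against empty vector (0.792 to 1.19), the second of which was 1.33 with the GC trend removed, while OSKM was 1.38-fold higher than empty vector (1.17 to 1.63). Sox6 stood at 0.480 RPKM per exon length in OSKM, 0.442 in G3SKM, 0.444 in SKM and 0.248 in empty vector, from 532, 665, 356 and 408 reads. It was 1.94-fold higher than empty vector in OSKM (1.70 to 2.21), 1.78-fold in G3SKM (1.57 to 2.02) and 1.79-fold in SKM (1.55 to 2.07). The 3 factor groups did not differ from each other beyond counting error for Sox6. These values count reads over the whole gene, so reads from introns and from unspliced RNA are included.

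Sox9, the SoxE member, was highest in empty vector and lowest in OSKM. It had 0.174 RPKM in OSKM, 0.225 in G3SKM, 0.520 in SKM and 0.783 in empty vector, from 72, 127, 156 and 483 reads. It was 4.51-fold lower than empty vector in OSKM (3.52 to 5.86), 3.47-fold lower in G3SKM (2.85 to 4.26) and 1.51-fold lower in SKM (1.25 to 1.82). OSKM was 2.996-fold lower than SKM (2.25 to 4.02) and G3SKM 2.31-fold lower (1.81 to 2.94), while OSKM and G3SKM did not differ beyond counting error (0.770, 0.569 to 1.04). Removal of the GC trend left Sox9 3.10-fold lower in OSKM and 2.38-fold lower in G3SKM than in SKM. The SoxG member Sox15 had 11 reads in OSKM, 5 in G3SKM, 9 in SKM and 2 in empty vector, which is too few for either rule, and it overlaps the gene Mpdu1 by 31 bases on the opposite strand.

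**Figure D4:**
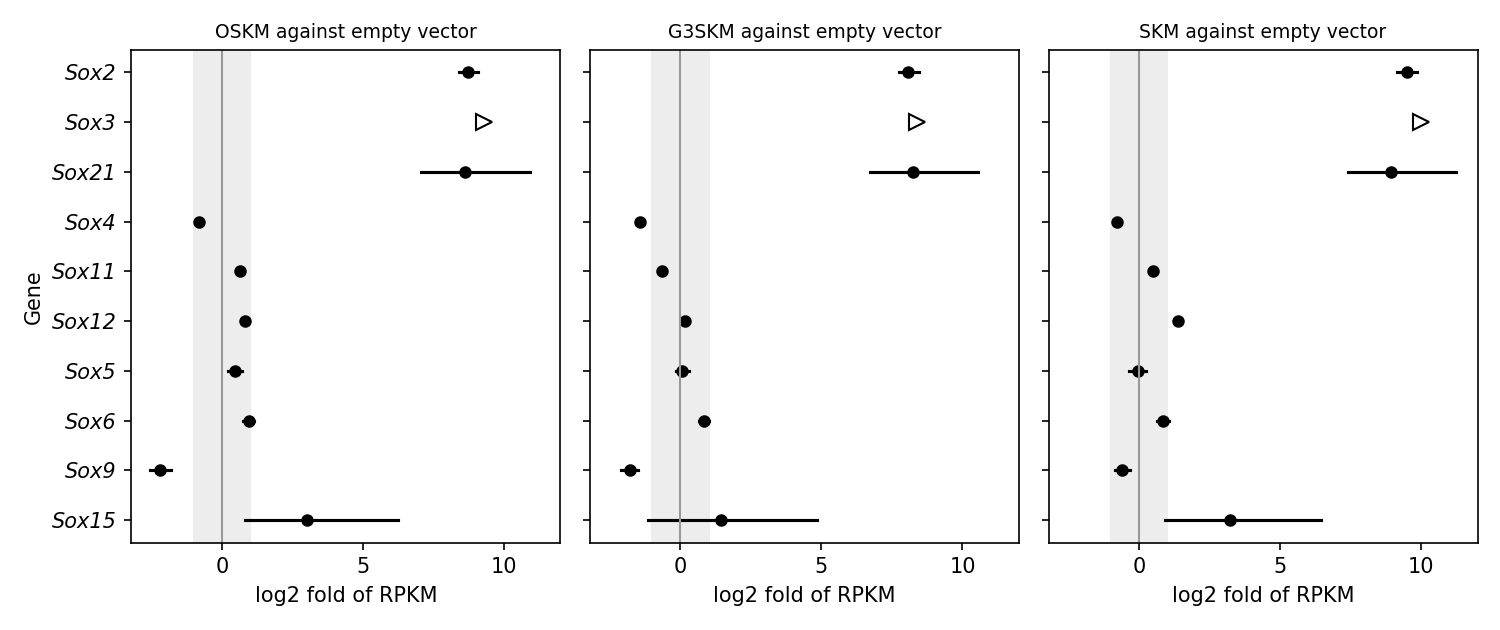
Log2 fold of RPKM for each SOX gene in OSKM, G3SKM and SKM, each against empty vector, with 95% counting intervals as bars. Open triangles mark Sox3, drawn at its lower bound against 3 reads, and the grey band marks folds under 2. Sox2, Sox3 and Sox21 lie beyond 8 on this log2 scale in all 3 panels. Sox9 lies below the band in OSKM and G3SKM, and Sox4 in G3SKM. Sox12 lies above the band in SKM, and Sox15, from few reads, in all 3 panels.

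Members were called in each comparison by 2 rules, since no test was possible. The rule of size asks for a log2 ratio of at least 1 in either direction after 1 RPKM is added to both values, among genes at 1 RPKM or more in either group, which 6 of the 10 genes passed (Sox2, Sox3, Sox21, Sox4, Sox11 and Sox12). The rule on reads asks for a fold of at least 2 among genes with 20 reads or more in the higher group, which all but Sox15 passed. Genes that pass a filter only through their higher group had to differ, so the counts are descriptions. Shares of all genes count calls in either direction unless a direction is named. With the GC trend removed, such shares are given only for SKM against empty vector and for genes lower in G3SKM against SKM.

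In SKM against empty vector, Sox2, Sox3, Sox21 and Sox12 were higher under both rules, and none was lower. Over all genes compared, the rule of size called 14.9% (8.88% higher) and the rule on reads 34.8% (21.4% higher). The median log2 fold on reads was 0.84 over the 9 members and 0.18 over all genes. Sox2 was delivered to SKM, and Sox3 and Sox21 passed the filter only through SKM. The median over the members was therefore partly fixed in advance and is a description only. With the GC trend removed, Sox12 was under both rules and Sox6 was 2.16-fold higher, so the rule on reads again called 4, beside 10.3% and 30.2% of all genes called by the 2 rules with the trend removed. In OSKM against empty vector, Sox2, Sox3 and Sox21 were higher under both rules and Sox9 was lower under the rule on reads, beside 8.94% and 29.9% of all genes called. In G3SKM against empty vector the same 3 genes were higher and Sox4 lower under both rules, and Sox9 was lower on reads, beside 10.8% and 32.3%. The median log2 fold on reads over all genes was 0.32 and 0.31 in these 2 comparisons, above 0, and centred on it Sox4 reached -1.13 in OSKM against empty vector, past the rule on reads. The 3 comparisons share the empty vector group.

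In OSKM against SKM, no member was called by the rule of size and Sox9 was lower by the rule on reads, beside 4.18% and 19.5% of all genes. In G3SKM against SKM, Sox2, Sox3 and Sox12 were lower by the rule of size, Sox11 just missed it at -0.998, and those 4 and Sox9 were lower by the rule on reads. Among all genes in that comparison, 5.52% and 14.9% were called in either direction, and 1.1% and 2.99% were lower. The median log2 fold on reads was -1.17 over the 9 members and 0.11 over all genes. With the GC trend removed, Sox2, Sox11 and Sox9 were lower on reads, Sox3 was 1.82-fold lower and Sox12 1.36-fold lower, both under the rule, and the median over the members was -0.50. The corresponding share of all genes called lower was 1.96%. In OSKM against G3SKM, Sox11 was higher under both rules, beside 2.95% and 13.9% of all genes called, and Sox2, Sox3, Sox21, Sox4 and Sox12 were between 1.29-fold and 1.88-fold higher, all under the rule.

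**Figure D5:**
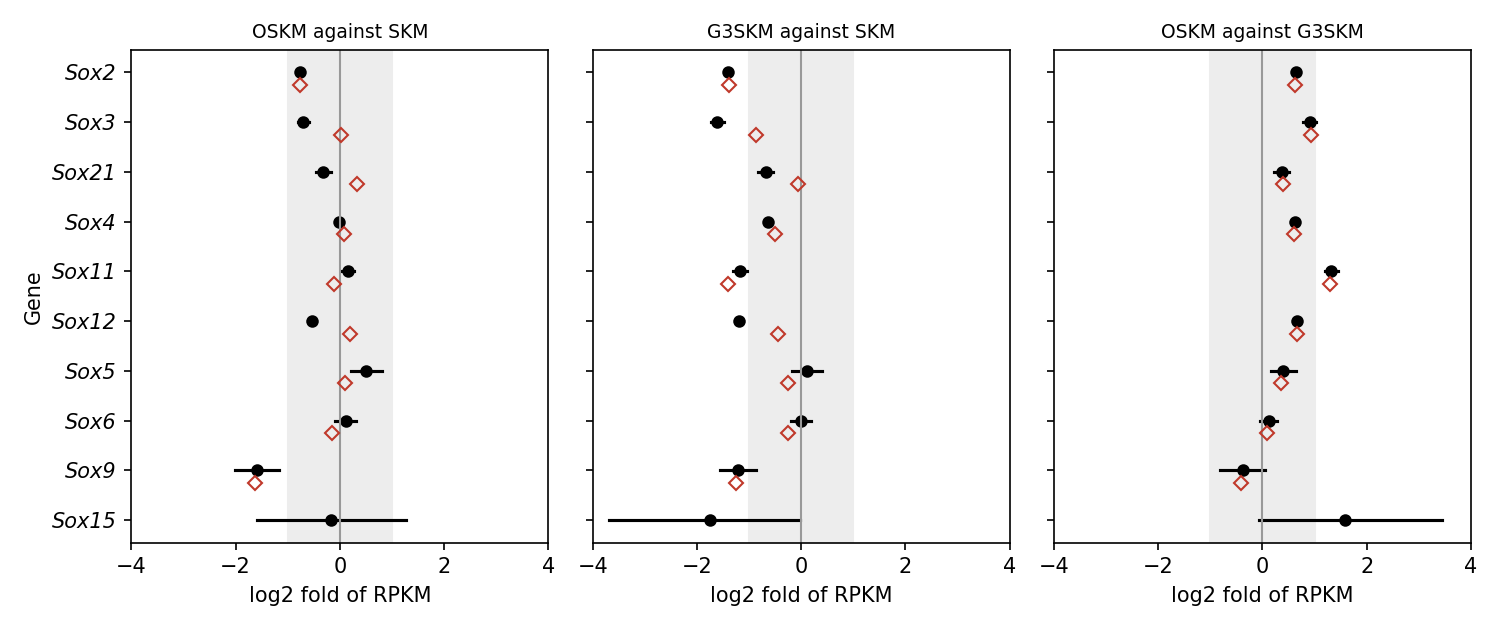
Log2 fold of RPKM for each SOX gene in OSKM against SKM, G3SKM against SKM and OSKM against G3SKM, with 95% counting intervals as bars (black). Red diamonds give the value with the GC trend removed, and the grey band marks folds under 2. In G3SKM against SKM the diamonds of Sox3 and Sox12 move into the band, and those of Sox2, Sox11 and Sox9 stay outside it.

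Of the 10 further SOX genes listed for comparison, 9 were in the tables and Sox1 was not. On the deposited scale none reached 1 RPKM, but per exon length Sox13, Sox8 and Sox10 did. Sox8, a SoxE relative of Sox9, was at 0.326 RPKM per exon length in OSKM, 0.682 in G3SKM, 1.29 in SKM and 0.113 in empty vector. It was 11.5-fold higher in SKM than in empty vector (8.15 to 16.6) and 3.97-fold lower in OSKM than in SKM (3.04 to 5.22). Sox13, a SoxD gene, was at 1.59 RPKM per exon length in OSKM, 3.82 in G3SKM, 6.10 in SKM and 0.814 in empty vector. These levels were above those of Sox5 and Sox6 in every group and above those of Sox21 in every group but OSKM. Sox13 was 7.50-fold higher in SKM than in empty vector (6.70 to 8.41) and 3.84-fold lower in OSKM than in SKM (3.47 to 4.26). With the GC trend removed the folds in SKM against empty vector were 8.54 for Sox8 and 4.74 for Sox13, and those of OSKM against SKM were 0.318 and 0.429. In G3SKM against SKM the fold was 0.527 for Sox8 (0.435 to 0.640) and 0.626 for Sox13 (0.583 to 0.672), and 0.656 and 1.05 with the trend removed, so the order of G3SKM and SKM for Sox13 turns with it. Sox10, which marks neural crest and its glia, had 39 reads in OSKM, 79 in G3SKM, 89 in SKM and 350 in empty vector. Its fold was 0.317 in OSKM against SKM and 0.472 in G3SKM against SKM, and 0.522 and 0.793 with the GC trend removed, which no longer passed the rule. Sox7 had 45 reads in G3SKM and 8 in SKM, a fold of 2.99 (1.40 to 7.35). In all, 2 of 4 of these genes past the read filter were higher in SKM against empty vector. Of all genes, 34.8% were called in either direction and 21.4% were higher. With the GC trend removed Sox10 was lower as well (fold of 0.330). In OSKM against SKM 3 of 5 were lower, beside 19.5% of all genes called in either direction. With the trend removed 2 were lower, a count given without a share of all genes. In G3SKM against SKM 1 was higher and 1 lower of 5, beside 14.9% in either direction and 2.99% lower. With the trend removed 1 was higher and none lower. By the rule of size on exon length, 2 of 3 past the filter, Sox8 and Sox13, were higher in SKM against empty vector. Both passed that filter only through SKM, and no share of all genes is given for that rule, so the count is a description only.

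Partner factors of SOX proteins were a list of 10 genes, of which 9 were in the tables. In OSKM against SKM, 5 of 9 past the read filter were higher and none lower, beside 19.5% of all genes called in either direction. With the GC trend removed 4 were higher, a count given without a share of all genes. Sall4, a zinc finger factor of pluripotent cells, was 16.1-fold higher (7.64 to 40.7), with 0.106 RPKM in OSKM and 0.00660 in SKM. Pou3f1, a POU factor that pairs with SOX proteins, was 12.5-fold higher (6.16 to 29.5), with 138 reads in OSKM and 8 in SKM, and 20.6-fold higher with the GC trend removed. Pou5f1, the gene of OCT4, which was delivered in OSKM, was at 3.69 RPKM in OSKM and 0.297 in SKM, 12.4-fold higher (8.97 to 17.7). In SKM against empty vector, 5 of 6 were higher and 1 lower, beside 34.8% of all genes called in either direction and 21.4% higher. Pou5f1 had 38 reads in SKM and none in empty vector, at least 26.0-fold higher, Pax6 was 8.15-fold higher (6.06 to 11.1), Chd7, a chromatin remodeller, 7.79-fold higher (7.06 to 8.61), and Pou3f3 had a fold of 0.370 (0.211 to 0.615). In G3SKM against SKM none of 7 was called, beside 14.9% of all genes, and 1 of 7 was higher with the GC trend removed.

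A list of 9 genes drawn up as OCT4-SOX2 targets gave 4 of 8 past the read filter higher in OSKM against SKM and none lower. Of all genes, 19.5% were called in either direction in that comparison. With the GC trend removed 3 of the list were higher, a count given without a share of all genes. Binding of the listed genes by OCT4 and SOX2 was not tested. Fgf4, a growth factor of early embryo cells, had 332 reads in OSKM and 4 in SKM, 60.02-fold higher (23.2 to 222). Tdgf1, a co-receptor of NODAL, had about 68 reads in OSKM and 0 in SKM, at least 16.4-fold higher with reads worked out from its annotated span. Utf1, a chromatin factor of pluripotent cells, had 57 reads in OSKM and 4 in SKM, 10.3-fold higher (3.81 to 39.1) and 16.99-fold higher with the GC trend removed. In SKM against empty vector 1 of 5 was higher and 2 were lower, beside 34.8% of all genes called. Zscan10 had 42 reads in SKM and 1 in empty vector, a ratio of 86.4 (14.7 to 3492). Nes, an intermediate filament gene of neural progenitors that fibroblasts also express, was at 12.6 RPKM in SKM and 41.9 in empty vector, and Spp1, osteopontin, at 16.8 and 51.4. In G3SKM against SKM 1 of 5 was higher, beside 14.9% of all genes called, Fbxo15 at 2.15-fold (1.94 to 2.38), which was 1.57-fold and under the rule with the GC trend removed.

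Genes under the other SOX subfamilies were counted as well, by the rule on reads, which called 29.9% of all genes in OSKM, 32.3% in G3SKM and 34.8% in SKM, each against empty vector. Of 14 cartilage genes under SOX9, SOX5 and SOX6, none was higher and 5 lower of 12 past the filter in OSKM against empty vector, 2 were higher and 4 lower of 13 in G3SKM, and 2 higher and 1 lower of 12 in SKM (2 and 3 with the GC trend removed). Their summed level was 182 reads per M reads in OSKM, 164 in G3SKM, 229 in SKM and 412 in empty vector, and 1 of them was at 0 in OSKM and in empty vector. In empty vector most of that sum came from Col2a1, with 17475 reads, and Col11a1, with 25701, so it does not describe every gene of the list. Of 4 SOXC target genes, 3 passed the filter and none was called against empty vector in any factor group, and 1 was lower in OSKM against SKM, a call lost with the GC trend removed. Of 7 neural progenitor markers, 4 passed, with 2 higher and 1 lower than empty vector in each factor group. Their summed reads were low, at 7.08 reads per M reads in OSKM, 8.34 in G3SKM, 13.45 in SKM and 6.58 in empty vector, where 2 of the 7 were at 0.

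Marker lists of the cells were counted in the same way. Sums are weighted to the genes with most reads, as among the keratinocyte markers, where Krt14 had 8009 reads and Trp63 had 9 in SKM. All 8 fibroblast markers were detected in every group, with 5772 reads per M reads in sum in OSKM, 6107 in G3SKM, 10875 in SKM and 13598 in empty vector, and the sum was highest in empty vector. Of these, 6 were lower and 2 higher in OSKM against empty vector, 5 lower and 1 higher in G3SKM, and 2 lower in SKM, where removal of the GC trend left 1 lower and 1 higher. Of 8 keratinocyte markers, 7 passed the filter and all 7 were higher than empty vector in each factor group, with 205 reads per M reads in sum in OSKM, 185 in G3SKM, 267 in SKM and 1.35 in empty vector, where 1 of the 8 was at 0. Neural crest and Schwann cell markers summed to 21.8 reads per M reads in OSKM, 20.6 in G3SKM, 16.4 in SKM and 20 in empty vector, with no marker at 0 in any group. Of these 8, 3 were higher and 1 lower of 7 past the filter in OSKM against empty vector, 1 higher and 1 lower of 6 in G3SKM, and 1 lower of 6 in SKM (2 lower with the GC trend removed). Dermal papilla markers summed to 219 in OSKM, 226 in G3SKM, 257 in SKM and 371 in empty vector, with 2 higher and 1 lower of 8 in OSKM and in SKM and 1 each way in G3SKM, and with the GC trend removed 1 higher and none lower in SKM. Their part in the differences of Sox4, Sox9 and the other SOX genes was not tested.

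The protein-coding genes whose pattern over the 4 groups was most like that of Sox2 were Bglap2, Bex1 and Krt14. Likeness was the Euclidean distance of log2 of RPKM + 1, centred on its mean over the groups, among 7195 genes, and came to 1.49 for Bglap2, 1.53 for Bex1 and 1.90 for Krt14. Bglap2 stood at 22.6 RPKM in OSKM, 28.5 in G3SKM, 55.6 in SKM and 0.0841 in empty vector, and it has a close relative, Bglap, with which reads may be shared. Bex1 stood at 38.8, 33.8 and 45.2 RPKM in OSKM, G3SKM and SKM and at 0.309 in empty vector. Krt14, a keratin of basal epidermal cells, stood at 16.5, 22.8 and 33.8 RPKM in those groups and at 0.0656 in empty vector. On these values SKM was highest and empty vector lowest in all 3 genes, as in Sox2. Bglap2 and Krt14 were higher in G3SKM than in OSKM, where Sox2 was not. The GC trend of SKM was not removed here, so the place of SKM and the likeness may depend on it. The transcript of Krt14 is 57.2% GC.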

How the data were processed

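Gene expression was measured by RNA-seq in 4 samples, 1 per group, and each represents 2 replicates per the labels. Amplified cDNA was further amplified by PCR, sonicated and made into libraries with a DNA kit, per the labels' protocols. TopHat 1.3.0 and build mm9 are named in the submitters' processing notes. The sources used here do not name the read counter, the annotation release or how replicates were combined. The deposited values, per the file headers, are RPKM for each gene, with the log2 ratio of each table's RPKM columns, and 0.001 was read as 0. The SKM column was identical in the 3 tables (largest difference 0), so columns of different tables were compared.

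Symbols (91.0% of 27597 genes), spans, exon lengths and GC came from GENCODE M21 (GRCm38), a later build. RPKM multiplied by the span less 1 base gave whole reads, within 0.05, for 74.1% to 76.3% of genes with 1 to 1000 reads (10% by chance), which fixed the depth. Where it did not (Sox2, Sox3, Sox11, Sox6, Sox9 and Sox12 among the members), the shortest length giving whole reads in all groups, within 0.002, was used, so reads are lower limits and intervals the widest; for Sox11 that length, 2012 bases, is far under its annotated 8311. For some genes outside the members, Sox14 and Tdgf1 among them, no length was resolved, and their reads are rounded values from the annotated span. Each group has 1 value, so no count test was run.

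The members and gene lists were chosen with earlier results of these data known. Every member is named; of other SOX genes, partners and OCT4-SOX2 targets, up to 3 called per direction in the 3 deposited comparisons; and the 3 nearest genes to Sox2. A floor of 3 reads stands for 0. PCR reads are not independent molecules, so 95% intervals and floors cover counting error only. The GC trend was removed as the median log2 fold in 20 bins. Both rules were tested on simulated data. Tools were Python 3.11.15, pandas 2.3.3, numpy 2.4.6, SciPy 1.17.1 and matplotlib 3.10.9.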

Additional observations from a re-analysis of the deposited data

How the results depend on the processing

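Other pseudocounts, filters, scalings, exon lengths, GC removal and thresholds were tried on the counts of called members. Of 115 called values of single members, recomputed under the settings that could change them, 101 kept their call, 14 lost it and none changed direction. Of 173 not called, 4 gained a call and 15 changed direction, 8 of them by removal of the GC trend in OSKM against SKM. Exon length, the higher read minimum and the lower fold are not in these counts. By the rule of size, a pseudocount of 5 RPKM gave 2 members called in SKM against empty vector, 1 in G3SKM against SKM, 2 in G3SKM against empty vector and 0 in OSKM against G3SKM. A size of 2 on the log2 scale gave 0 in G3SKM against SKM, 2 in G3SKM against empty vector and 0 in OSKM against G3SKM, and a filter of 5 RPKM gave 2 in G3SKM against empty vector. By the rule on reads, a fold of 1.5 gave 7 in SKM against empty vector, 3 in OSKM against SKM, 8 in OSKM against empty vector and 5 in OSKM against G3SKM, and removal of the GC trend gave 3 in G3SKM against SKM. The pseudocount, size, filter and fold act by construction, since they move the threshold. No paired analysis was possible because each group has 1 value. Leaving out a replicate was not possible for the same reason. Reads of Sox15, and of Sox3 and Sox21 in empty vector, are too few to bound a fold closely.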
